A study of Danio rerio with 14 samples.

Results

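The genes described here encode the subunits of the mitochondrial respiratory chain (complexes I to IV) and of the ATP synthase (complex V), together with a few of their assembly factors. A probe was included when the gene symbol of the array annotation began with nduf, with sdh and a letter from a to d, with uqcr, with atp5, or with cox and a digit from 4 to 8. This gave 140 of the 17950 probes, for 74 of 8830 gene symbols. Complex I held 40 probes for 25 genes, complex II 9 probes for 5 genes, complex III 19 probes for 8 genes, complex IV 29 probes for 18 genes and complex V 34 probes for 13 genes. The remaining 9 probes belong to 5 genes that are no subunits. They are ndufaf2 and ndufaf4, assembly factors of complex I, sdhaf2, which attaches the flavin to subunit A of complex II, atp5s (now dmac2l), and cox4nb (now emc8), a subunit of the membrane protein complex of the endoplasmic reticulum that was caught by its older name alone. ndufa4 and its paralog ndufa4l were counted with complex IV, where the ndufa4 protein sits. All 140 probes had a value on every array, and no member was lost to a filter here.

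Eyes were taken from wild-type zebrafish larvae of the AB strain, and 1 RNA sample held the pooled eyes of 10 larvae. There were 4 groups of 3 samples. The group TBBPA 8 dpf had lived in 200 µg/L tetrabromobisphenol A, a brominated flame retardant, until 5 days post fertilization (dpf) and then for 3 days in clean water. Control 8 dpf larvae had received the same handling with 0 µg/L TBBPA. TBBPA 5 dpf larvae were sampled at the end of the exposure, and control 5 dpf larvae at the same age. According to the methods, the medium of every group held the same amount of the solvent dimethyl sulfoxide during the exposure. No genotype was altered in any group, and plates, each started with 24 eggs, were the unit of replication. The samples were paired on 14 two-colour arrays, with 4 arrays joining TBBPA to control at 8 dpf, 6 arrays joining them at 5 dpf and 4 arrays joining the ages.

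The respiratory chain sits in the inner mitochondrial membrane. Complex I takes electrons from NADH and complex II from succinate, complex III passes them to cytochrome c, and complex IV, cytochrome c oxidase, hands them to oxygen. The protons pumped by complexes I, III and IV drive complex V, which makes ATP. Photoreceptors pack mitochondria into the inner segment and are among the heaviest consumers of ATP in the body, and skeletal and extraocular muscle are rich in the same complexes. Several subunits of complex IV exist as paralogs that are used in different tissues. The core subunits encoded by mitochondrial DNA are not among these nuclear genes.

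The table holds log2 ratios and no absolute levels, so all values below are relative. A relative level is the least-squares level of a sample on the log2 scale, with the 12 samples of a probe summing to 0. Levels of different genes cannot be ranked against each other. A change is the coefficient of the limma model over all 14 arrays, with its standard error (SE). A probe was called when the Benjamini-Hochberg adjusted p over all 17950 probes was under 0.05. The estimated share of variance due to the RNA sample was 0 in this model, so these p-values rest on arrays. With a dye effect in the model the estimate was 0.32. A fit on the 12 sample levels was therefore run as well, and the member calls it ended are named below. In dissected eyes, fewer cells of a type and less RNA per cell cannot be told apart.

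Averaged over its probes, complex I had relative levels of -0.45, -0.08 and -0.32 in the TBBPA 8 dpf samples (replicates 1, 2 and 3) and of -0.42, -0.33 and -0.02 in the control 8 dpf samples. At 5 dpf it had 0.26, 0.30 and 0.24 in the TBBPA samples and 0.33, 0.15 and 0.35 in the control samples. All samples taken at 8 dpf lay below all samples taken at 5 dpf, and TBBPA and control samples overlapped at both ages. Complex III repeated this arrangement with group means of -0.27 ± 0.14 in TBBPA 8 dpf, -0.25 ± 0.19 in control 8 dpf, 0.27 ± 0.02 in TBBPA 5 dpf and 0.26 ± 0.09 in control 5 dpf (SD, n = 3 each).

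Complex IV averaged -0.26 ± 0.06 in TBBPA 8 dpf, -0.34 ± 0.17 in control 8 dpf, 0.34 ± 0.04 in TBBPA 5 dpf and 0.26 ± 0.12 in control 5 dpf (SD, n = 3 each). Complex V averaged -0.37 ± 0.21 in TBBPA 8 dpf, -0.30 ± 0.21 in control 8 dpf, 0.36 ± 0.05 in TBBPA 5 dpf and 0.31 ± 0.03 in control 5 dpf. The ages did not overlap in either complex. Complex II was arranged differently. Its levels were -0.27, 0.06 and -0.26 in TBBPA 8 dpf and -0.12, -0.04 and 0.14 in control 8 dpf, against 0.02, 0.08 and -0.04 in TBBPA 5 dpf and 0.19, 0.11 and 0.13 in control 5 dpf. The ages overlapped there, while the 3 TBBPA samples at 5 dpf lay below the 3 controls. Among its 9 probes, 3 were apart in this way, 6 overlapped and 0 were called. The 3 were both probes of sdhdb and probe A_15_P209596 of sdha. With 3 and 3 samples an exact permutation test cannot go under p = 0.1, so this order of the samples alone cannot show an effect. How many of all 17950 probes were apart in this way was not counted. Whether 3 of 9 is unusual can therefore not be told.

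**Figure D1:**
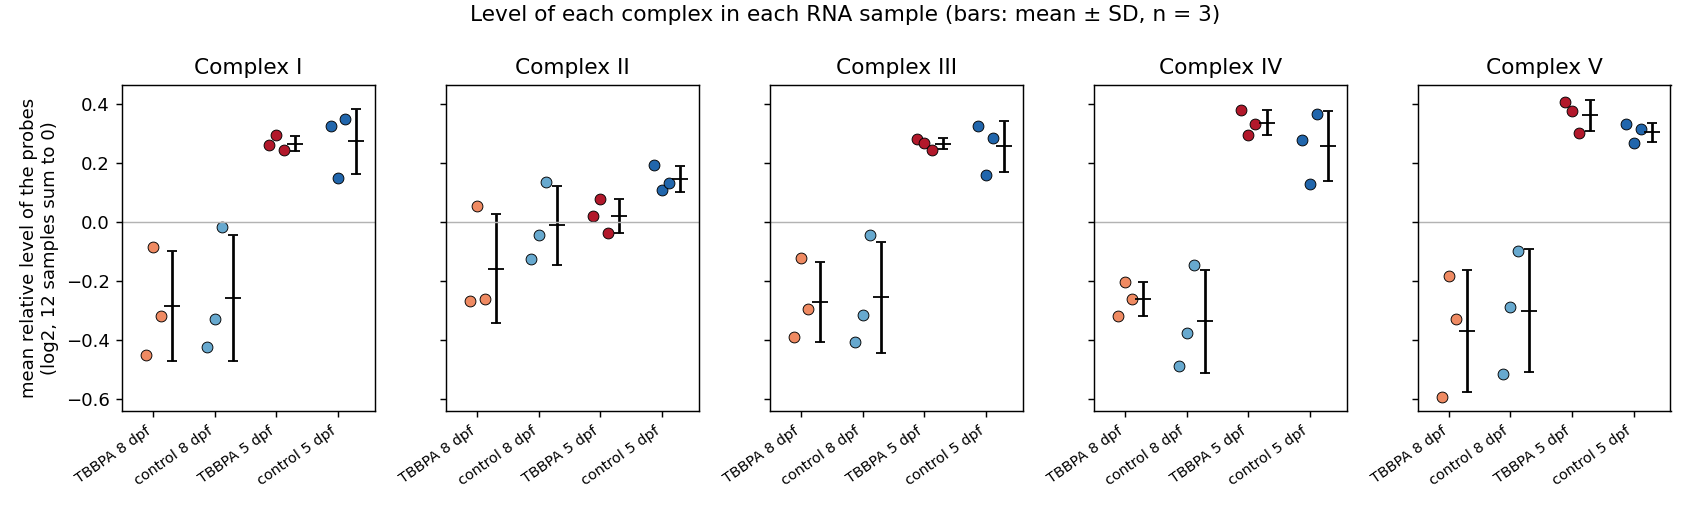
Relative level (log2, 12 samples sum to 0) of complexes I to V, averaged over the probes of each complex, in each RNA sample of the 4 groups; points are samples and bars the mean ± SD of 3 samples. Samples at 8 dpf lie below those at 5 dpf in complexes I, III, IV and V, while TBBPA and control overlap at each age except for complex II at 5 dpf. The ages are tied to each other only by the 4 arrays joining them.

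The samples at 8 dpf were spread more widely than those at 5 dpf. The median distance between the highest and the lowest sample of a member probe was 0.29 in TBBPA 8 dpf and 0.41 in control 8 dpf, against 0.17 in TBBPA 5 dpf and 0.22 in control 5 dpf. The probes moved together in this. Of the 131 subunit probes, 93 were lowest in replicate 1 and 91 highest in replicate 2 of TBBPA 8 dpf, and 104 were lowest in replicate 1 and 108 highest in replicate 3 of control 8 dpf. Direct arrays at 8 dpf joined TBBPA replicate 1 to control replicates 1 and 2, and control replicate 3 to TBBPA replicates 2 and 3. These sets met only through the arrays joining the ages, while direct arrays at 5 dpf linked all samples of that age. The part of this array linkage in the spread and in the counts was not tested.

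Exposure to TBBPA was compared with control at 5 dpf to see which transcripts had moved by its end. Few of the respiratory chain had. 3 of the 140 member probes rose and 0 fell, where 4.23% of all probes rose and 2.84% fell. At an unadjusted p under 0.05 these were 11 and 3 probes, together 10.0% of the members against 22.4% of all probes in both directions. The called probes all belong to complex IV and to the 2 small subunits VIa and VIb. The median change was 0.10 in complex IV, 0.09 in complex V, 0.01 in complex III, 0.00 in complex I and -0.12 in complex II, beside 0.00 over all probes. Without control 5 dpf replicate 2 the median of complex IV was 0.05, and without TBBPA 5 dpf replicate 1 that of complex V was 0.03.

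cox6a2 showed the largest change of all members at 5 dpf. In mammals it encodes the heart and muscle form of subunit VIa, which binds adenine nucleotides on the oxidase. Probe A_15_P628156 had relative levels of 0.69, 0.37 and 0.51 in the TBBPA 5 dpf samples, against -0.27, -0.13 and 0.07 in the control 5 dpf samples. The 3 TBBPA samples lay above the 3 controls. On the 6 arrays that joined the groups directly, TBBPA exceeded control by 0.41 to 0.82. The fitted change was 0.66 ± 0.05 (SE), 1.58-fold, with an adjusted p of 2.15e-05 by limma. When RNA samples were the replicates the change was 0.63 and the adjusted p 0.0973. That fit called 1 probe in the whole table at this age, which was no member. An exact two-sided permutation test over the 3 and 3 samples gave p = 0.1, the smallest this design allows. With each RNA sample left out in turn, cox6a2 was called in 12 of 12 fits, with adjusted p between 7.47e-05 and 0.0109. Over all 19 alternatives the adjusted p ran from 1.45e-05 to 0.0973.

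Genes of skeletal muscle were higher in the same comparison. Of 20 probes for 7 muscle genes, 20 had a positive change at 5 dpf and 5 were called, with a median of 0.25. They were 3 of the 5 probes of acta1b and 2 of the 3 probes of actc1b, both actins of striated muscle. The mean level of the muscle probes was 0.60, 0.50 and 0.43 in TBBPA 5 dpf and 0.03, 0.34 and 0.52 in control 5 dpf. These ranges overlap, unlike those of cox6a2. With RNA samples as replicates the 5 muscle calls were lost (adjusted p 0.609 to 0.882). Within the control 5 dpf samples, replicate 1 was lowest and replicate 3 highest for both. In TBBPA 5 dpf replicate 1 was highest for both, and the lowest sample was replicate 2 for cox6a2 and replicate 3 for muscle. In TBBPA 8 dpf replicate 3 was highest for both, and the lowest was replicate 2 for cox6a2 and replicate 1 for muscle. In control 8 dpf replicate 2 was lowest for both, and the highest was replicate 1 for cox6a2 and replicate 3 for muscle. At 8 dpf the mean level of these probes ran from -0.65 to -0.33 in TBBPA samples and from -0.60 to 0.05 in control samples. The arrays give ratios alone, so whether markers of the eye or of muscle were absent from a sample cannot be read from them, and the part of muscle in the cox6a2 change was not tested.

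Other marker lists separated TBBPA from control samples at 5 dpf, where 4.23% of all probes rose and 2.84% fell. The calls in this paragraph are those of the main fit, which rest on arrays. With RNA samples as replicates only 1 probe of the whole table was called at this age. Blood probes (4 of 4 higher, median 0.67) ran from 1.24 to 1.59 in TBBPA 5 dpf and from 0.44 to 0.78 in control 5 dpf. Skin and cornea epithelium (14 of 27 higher, median 0.39) ran from 0.74 to 0.99 in TBBPA samples and from 0.30 to 0.67 in control samples, and lens (6 of 13 higher, median 0.46) from -0.16 to 0.16 and from -0.56 to -0.29. Exocrine pancreas (12 of 14 lower, median -1.37) ran from -0.31 to 0.64 in TBBPA samples and from 0.85 to 2.05 in control samples, and liver (4 of 9 lower, median -0.78) from -0.21 to 0.04 and from 0.08 to 1.56. Some lists of the mitochondrion lay lower in TBBPA samples, with 1 probe called lower in each, beside the 2.84% of all probes that fell. Electron and nucleotide carriers (1 of 30 lower, median -0.09) ran from 0.10 to 0.24, against 0.26 to 0.29 in control samples. Biogenesis regulators (1 of 9 lower) ran from -0.11 to -0.09, against -0.04 to -0.02. Mitochondrial import (1 of 24 lower) ran from 0.01 to 0.0696, against 0.0702 to 0.14. None of these lists overlapped between the groups, and their part in the changes at 5 dpf was not tested. With 3 and 3 samples an exact permutation test cannot go under p = 0.1, so this order alone cannot show an effect. How many other lists or probes of the whole table were apart in this way was not counted. Lists of the tricarboxylic acid cycle (0 of 26 called), further assembly factors (1 higher and 1 lower of 35) and the mitochondrial ribosome (1 higher and 0 lower of 88) overlapped. Uncoupling proteins (3 higher and 2 lower of 6) did as well. Cone genes (3 higher and 6 lower of 15, median -0.32) overlapped.

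The other called probes changed by less. cox6a1, the form of subunit VIa found in most mammalian tissues, had 2 probes. Probe A_15_P659476 had relative levels of 0.46, 0.33 and 0.21 in TBBPA 5 dpf and 0.09, 0.02 and 0.16 in control 5 dpf, so the groups did not overlap. Its change was 0.27 ± 0.07 (SE; adjusted p 0.0302 by limma). The other probe, A_15_P107138, was at 0.15 ± 0.09 and not called (adjusted p 0.314). cox6b1 encodes subunit VIb, which joins the oxidase monomers on the side of the intermembrane space. It had 0.58, 0.27 and 0.45 in TBBPA 5 dpf and 0.29, 0.23 and 0.15 in control 5 dpf. These samples overlapped, and the fitted change was 0.24 ± 0.06 (SE; adjusted p 0.0222). Each of these calls was lost when a dye effect entered the model, with direct arrays alone and with RNA samples as replicates (adjusted p 0.083 to 0.737 for cox6a1 and 0.0886 to 0.681 for cox6b1). cox6a1 was called in 6 and cox6b1 in 5 of the 12 fits without 1 RNA sample. Both calls ended without replicate 1 of TBBPA 5 dpf, without replicate 1 or 2 of control 5 dpf and without replicate 1 or 2 of control 8 dpf. That of cox6a1 also ended without TBBPA 5 dpf replicate 2, and that of cox6b1 without TBBPA 5 dpf replicate 3 or control 5 dpf replicate 3.

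**Figure D2:**
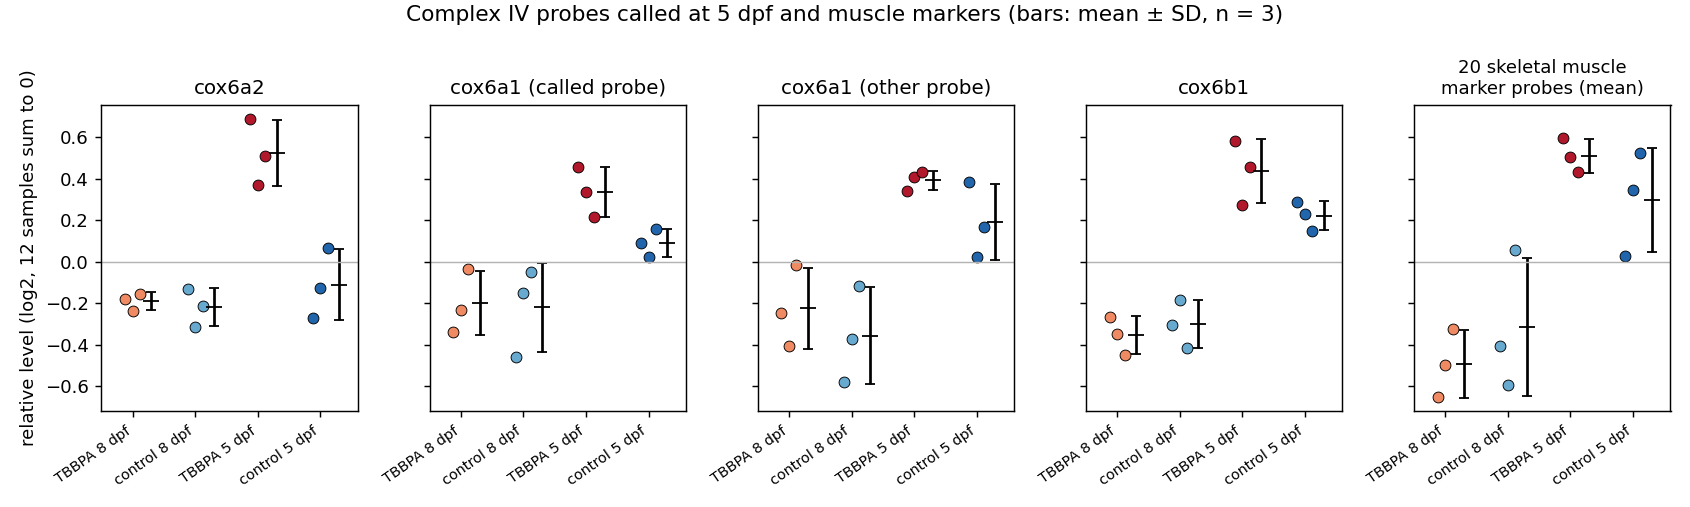
Relative levels (log2, 12 samples sum to 0) of cox6a2, of both cox6a1 probes and of cox6b1, and the mean of 20 skeletal muscle marker probes, in each RNA sample; points are samples and bars the mean ± SD of 3 samples. cox6a2 is high in the TBBPA 5 dpf samples (0.37 to 0.69) and not above 0.07 elsewhere, and the muscle markers lie from 0.43 to 0.60 in TBBPA 5 dpf and from 0.03 to 0.52 in control 5 dpf, where the lowest sample is below the highest control at 8 dpf (0.05).

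Complex II lay on the other side of 0 at 5 dpf. 8 of its 9 probes had a negative change and 0 were called. The 2 probes of sdha, the flavoprotein that oxidises succinate, were at -0.18 ± 0.07 and -0.21 ± 0.09 (SE; adjusted p 0.143 and 0.208). sdhdb, a membrane anchor, was at -0.12 and -0.20, and sdhc, the other anchor, by -0.01 and -0.08. A factor outside the rule, which is no subunit, was called and was singled out after its values were seen. Probe A_15_P182341, annotated as acn9 and now sdhaf3, a gene for the maturation of the iron-sulfur subunit B, fell by 0.31 (SE 0.06; adjusted p 0.00834). With RNA samples as replicates its adjusted p was 0.383.

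In complex I the values at 5 dpf ran between -0.14 (ndufs4) and 0.15 (ndufb6), both accessory subunits. In complex III they ran between -0.08 for uqcrc1, a core subunit, and 0.16 for uqcrfs1, the Rieske iron-sulfur protein. In complex V, 28 of 34 probes were positive, the highest at 0.23 for atp5h, a subunit of the peripheral stalk (adjusted p 0.188), and for atp5ib, which encodes subunit e. The catalytic subunits atp5a1 and atp5b lay between -0.04 and 0.21, and the ATP synthase inhibitor atpif1, which the symbol rule does not include, at 0.11 and 0.20 (adjusted p 0.298 and 0.15).

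After 3 days in clean water the comparison was repeated at 8 dpf to see what remained. 0 of 140 member probes were called in either direction, where 0.696% of all probes rose and 0.696% fell. At an unadjusted p under 0.05 there were 0 higher and 15 lower members. These were 10.7% of the members, against 11.7% of all probes in both directions together. The share of all probes in each direction was not counted at this threshold. Among marker lists, 7 of 21 rod probes were called higher and 0 lower in the main fit (median 0.32). Of 15 cone probes, 3 were called higher and 3 lower. The fit on sample levels called 0 probes of the whole table at this age. Medians were 0.06 in complex IV, -0.03 in complex III, -0.05 in complex I, -0.07 in complex V and -0.10 in complex II, beside 0.00 over all probes. These medians moved with single samples. Without control 8 dpf replicate 3 they were 0.15 in complex IV, 0.06 in III, 0.05 in I, -0.02 in V and -0.03 in II. Without TBBPA 8 dpf replicate 1 that of complex IV was -0.0012, without control 8 dpf replicate 1 that of complex II was -0.16, and without TBBPA 5 dpf replicate 1 that of complex V was -0.16.

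The lowest values at 8 dpf were shared by subunits of 3 complexes. ndufv1, which carries the NADH binding site of complex I, was at -0.52 ± 0.14 (SE; adjusted p 0.112) on probe A_15_P735621 and at -0.50 ± 0.16 on A_15_P141101. The first of these had levels of -0.76, 0.25 and -0.44 in TBBPA 8 dpf and of -0.15, 0.36 and 0.23 in control 8 dpf. Replicate 2 of TBBPA lay within the controls and the other two below them. Probe A_15_P735146 of sdhb, the iron-sulfur subunit of complex II, had -0.94, 0.39 and -0.65 in TBBPA 8 dpf and -0.39, -0.01 and 0.43 in control 8 dpf, with a value of -0.51 ± 0.16 (adjusted p 0.152). Replicate 2 was again the highest TBBPA sample on probe A_15_P217871 of atp5a1, the alpha subunit of the catalytic head, which had -1.40, -0.13 and -0.66 in TBBPA 8 dpf and -0.61, -0.20 and -0.18 in control 8 dpf. There it lay above the controls and the other two below them, and the value was -0.48 ± 0.18 (adjusted p 0.26). In complex II 9 of 9 probes had a negative change at 8 dpf and 0 were called. On sdha probe A_15_P209596 the TBBPA 8 dpf samples ran from -0.23 to 0.11 and the controls from 0.21 to 0.32. On A_15_P209601 they ran from -0.23 to 0.11 and from 0.16 to 0.35. How many of all probes were apart in this way was not counted. Without TBBPA 8 dpf replicate 2, 6 member probes were called lower at 8 dpf. They were both probes of ndufv1 and 1 probe each of sdha, sdhb, atp5a1 and atp5f1, the last encoding subunit b of the peripheral stalk. The same fit called 594 of all 17950 probes in either direction at this age, against 250 with every sample kept.

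**Figure D3:**
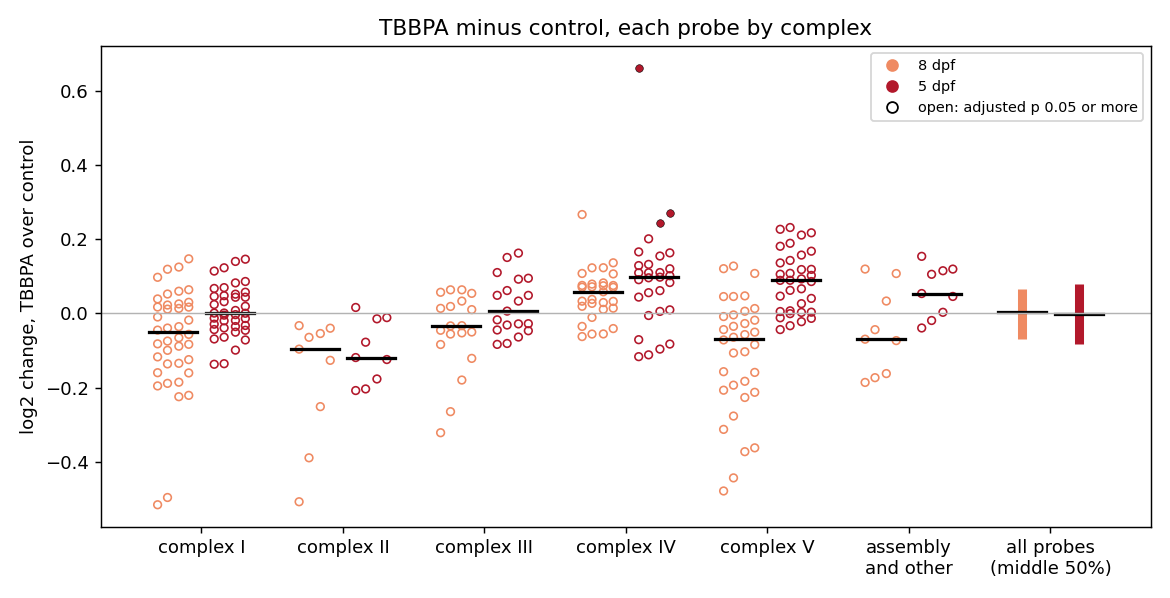
Log2 change of TBBPA over control for each member probe by complex, at 8 dpf and at 5 dpf; filled points have an adjusted p under 0.05, black lines are medians, and the bars at the right span the middle 50% of all probes. The 3 filled points, at 5 dpf in complex IV, are cox6a2 at 0.66, cox6a1 at 0.27 and cox6b1 at 0.24.

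The difference between the effects at 8 and at 5 dpf was tested directly. Of all probes 0.0223% were called higher and 0.0390% lower, and of the members 0 higher and 1 lower. This member was cox6a2, with an effect of 0.03 ± 0.06 at 8 dpf, against 0.66 ± 0.05 at 5 dpf, a difference of -0.63 ± 0.08 (SE; adjusted p 0.00601). The call was lost with RNA samples as replicates and in 7 of the 12 fits without 1 RNA sample (adjusted p 0.00518 to 0.288 over the 12). These 7 left out replicate 1 or 3 of TBBPA 8 dpf, replicate 1, 2 or 3 of control 8 dpf, replicate 1 of TBBPA 5 dpf or replicate 1 of control 5 dpf. In complex V, 29 of 34 differences were negative, with a median of -0.17 and 0 called.

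Most calls among these genes came in the comparison of the ages. Between 5 and 8 dpf most transcripts of complexes I, III, IV and V fell in both treatments. Larvae of both treatments spent these 3 days in clean water, which in TBBPA larvae followed the end of the exposure. Age and this change of medium cannot be told apart here. In TBBPA larvae 116 of 140 member probes (82.9%) fell and 0 rose, where 22.4% of all probes fell and 20.9% rose. In controls 103 of 140 (73.6%) fell and 0 rose, where 18.2% of all probes fell and 14.0% rose. At an unadjusted p under 0.05, 1 member was higher in TBBPA larvae and 6 in controls. The median change over the 131 subunit probes was -0.71 in TBBPA larvae and -0.59 in controls, beside 0.03 over all probes in each. Both lists shared 102 probes, out of 116 that fell in TBBPA larvae and 103 that fell in controls. The groups compared hold different RNA samples, but both comparisons rest on the same 4 arrays joining the ages. Some of these arrays crossed treatments, so samples of each treatment entered the fitted age change of the other. The lists are therefore not independent of each other.

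Those 4 arrays used replicate 1 of each group at 5 dpf and no other 5 dpf sample. On each of them most subunit probes were lower at 8 dpf. TBBPA 8 dpf replicate 3 over TBBPA 5 dpf replicate 1 had a median of -0.59, with 125 of 131 probes below 0. Control 8 dpf replicate 2 over control 5 dpf replicate 1 had -0.58, with 123 below 0. The 2 arrays that crossed treatments gave -0.82 for control 8 dpf replicate 1 over TBBPA 5 dpf replicate 1 and -0.50 for TBBPA 8 dpf replicate 2 over control 5 dpf replicate 1. Medians over all probes on these arrays lay between 0.00 and 0.02.

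The counts depended on these samples. Without TBBPA 5 dpf replicate 1, 48 probes fell in TBBPA larvae and 64 in controls, and without control 5 dpf replicate 1, 105 fell in TBBPA larvae and 47 in controls. With each array scaled to the same spread 79 probes fell in TBBPA larvae and 41 in controls. Calls over all 17950 probes, in both directions, became fewer as well. They were 7774 in TBBPA larvae and 5792 in controls in the main fit. Without TBBPA 5 dpf replicate 1 they were 1765 and 2568, and without control 5 dpf replicate 1 they were 5615 and 1394. With equal array scale they were 2908 and 1183. The fit on sample levels, which ignores that all samples of an age share these few links, called 109 lower in TBBPA larvae and 93 in controls. Of all probes it called 4911 and 3965 in either direction. The 7 calls it ended in TBBPA larvae were 2 of ndufa4l and 1 each of ndufa8, ndufb8, sdhda, sdhb and cox7a3. The 10 it ended in controls were 2 of atp5ib and 1 each of ndufa2, ndufa5, ndufa8, uqcrfs1, cox6a1, ndufa4l, atp5g3b and atp5o. No member called in either treatment was called in the opposite direction under any alternative that was run.

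Complex I fell in most of its probes. 34 of 40 probes were called lower in TBBPA larvae and 33 in controls, with medians of -0.69 and -0.55. ndufa10, an accessory subunit, changed most within the complex, by -1.05 ± 0.11 in TBBPA larvae and by -0.98 ± 0.11 in controls (SE; adjusted p 6.15e-06 and 1.53e-05). Its levels were -0.60, -0.36 and -0.53 in TBBPA 8 dpf, against 0.47, 0.48 and 0.46 in TBBPA 5 dpf. In controls they were -0.72, -0.42 and -0.24 at 8 dpf, against 0.54, 0.53 and 0.39 at 5 dpf. The 31 probes of accessory subunits had medians of -0.71 in TBBPA larvae and -0.64 in controls, and 30 and 28 of them were called. The 9 probes of core subunits had medians of -0.32 and -0.43, and 4 and 5 were called. This division into core and accessory subunits was made after the values were seen.

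The uncalled probes of complex I include those of the NADH entry site. ndufv1 was at -0.20 and -0.21 in TBBPA larvae and at 0.16 and 0.20 in controls (adjusted p from 0.37 to 0.568). The 2 probes of ndufa9, an accessory subunit near the quinone site, were at -0.29 and -0.11 in TBBPA larvae and at -0.06 and 0.05 in controls, and the -0.29 alone was called. For ndufs1, the largest iron-sulfur subunit, probe A_15_P110609 changed by -0.56 in TBBPA larvae and -0.52 in controls, both called, while probe A_15_P103228 was at -0.05 in each. For ndufs7, which carries the last iron-sulfur cluster before the quinone, A_15_P376190 was at -0.18 in TBBPA larvae and 0.01 in controls, and A_15_P663756 at -0.32 (adjusted p 0.0964) and -0.43 (adjusted p 0.0396). The -0.43 is the only member call made in controls and not in TBBPA larvae.

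Complex II had the smallest share of calls among the 5 complexes. 4 of its 9 probes were called lower in TBBPA larvae and 2 in controls, with medians of -0.24 and -0.17. Both control calls were the probes of sdhdb, which changed by -0.45 and -0.68 in TBBPA larvae and by -0.53 and -0.82 in controls. Its paralog sdhda was at -0.24 ± 0.08 in TBBPA larvae (adjusted p 0.0305) and at -0.17 ± 0.08 in controls (adjusted p 0.131). The fourth call in TBBPA larvae was probe A_15_P735146 of sdhb, at -0.60 ± 0.20 (adjusted p 0.0262), against -0.11 ± 0.20 in controls (adjusted p 0.713), while the other sdhb probe was at -0.18 in each. sdha had positive values throughout. Its probes were at 0.18 ± 0.11 and 0.16 ± 0.14 in TBBPA larvae and at 0.26 ± 0.11 and 0.34 ± 0.14 in controls (SE; adjusted p from 0.0783 to 0.38). Complex II is also the complex that works in the tricarboxylic acid cycle, and of 26 probes for 15 enzymes of that cycle 12 fell and 1 rose in TBBPA larvae and 10 fell and 0 rose in controls, with medians of -0.24 and -0.20.

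In complex III, 18 of 19 probes were called lower in TBBPA larvae and 16 in controls, with medians of -0.64 and -0.59. uqcrc2b, a core subunit, changed by -0.89 ± 0.11 in each (adjusted p 1.81e-05 in TBBPA larvae and 2.38e-05 in controls). uqcrfs1 had 4 probes, at -0.92, -0.47, -0.80 and -0.65 in TBBPA larvae and at -0.84, -0.58, -0.31 and -0.32 in controls, with the -0.31 alone not called. The probe that was called in neither treatment was A_15_P463645 of uqcrc1, at 0.14 ± 0.08 and 0.19 ± 0.08 (SE; adjusted p 0.151 and 0.067). The other 2 probes of this gene were at -0.63 and -0.68 in TBBPA larvae, both called, and at -0.45 and -0.72 in controls, with the -0.72 called.

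In complex IV, 25 of 29 probes were called lower in TBBPA larvae and 22 in controls, with medians of -0.82 and -0.68. cox5ab, a form of the nuclear subunit Va, changed by -1.37 ± 0.14 in TBBPA larvae and -1.28 ± 0.14 in controls (SE; adjusted p 4.36e-06 and 1.09e-05), that is 2.59-fold and 2.43-fold lower. Its levels were -0.60, -0.44 and -0.56 in TBBPA 8 dpf, against 0.72, 0.65 and 0.62 in TBBPA 5 dpf. Controls had -0.88, -0.71 and -0.34 at 8 dpf, against 0.63, 0.36 and 0.54 at 5 dpf. The ages were apart by more than the spread of the samples in both treatments. ndufa4, a subunit of the oxidase despite its name, changed by -1.27 and -1.02 in TBBPA larvae and by -1.32 and -1.04 in controls. The 3 probes of its paralog ndufa4l were at -0.31 to -0.36 in TBBPA larvae, all called, and at -0.26 to -0.37 in controls, with the -0.26 not called.

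Paralogs of the same subunit had different values with age. For subunit IV, both probes of cox4i1, the common form, were called lower in each treatment, at -0.91 and -0.83 in TBBPA larvae and -0.93 and -0.78 in controls. Both probes of cox4i2, which in mammals is the lung form and responds to low oxygen, were at 0.38 and 0.31 in TBBPA larvae and at 0.11 and 0.23 in controls, with 0 called. For subunit VIIa, cox7a2 changed by -1.23 ± 0.13 in TBBPA larvae and -1.26 ± 0.13 in controls, and cox7a1, the heart and muscle form of mammals, was at -0.17 ± 0.17 in TBBPA larvae and -0.07 ± 0.17 in controls (adjusted p 0.437 and 0.766). For subunit Vb, cox5b2 was at 0.29 ± 0.22 in TBBPA larvae and 0.53 ± 0.22 in controls (SE; adjusted p 0.30 and 0.0768), the highest value of any member in controls. Its paralog cox5ba, annotated under an older clone name and so outside the rule, changed by -0.69 and -0.68, both called. The differences between paralogs were not tested.

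The 2 genes of subunit VIa had different values with age. Both probes of cox6a1 were called lower in each treatment, at -0.73 and -0.63 in TBBPA larvae and at -0.68 and -0.35 in controls, and neither probe was called in the difference of the effects. cox6a2 fell by 0.73 in TBBPA larvae (SE 0.08; adjusted p 9.39e-06) and was at -0.10 ± 0.08 in controls (adjusted p 0.358). The levels were -0.18, -0.24 and -0.15 in TBBPA 8 dpf, against 0.69, 0.37 and 0.51 in TBBPA 5 dpf. In controls they were -0.13, -0.31 and -0.21 at 8 dpf, against -0.27, -0.13 and 0.07 at 5 dpf. The ages overlapped in controls and not in TBBPA larvae. The test of this difference is the one given above, since the same 4 group means enter it. cox8a, the form of subunit VIII analysed here, changed by -0.98 in TBBPA larvae and -0.91 in controls. cox7a3, whose human counterpart takes part in the joining of complexes, was at -0.41 and -0.32 in TBBPA larvae and at -0.37 and -0.28 in controls, with the -0.37 alone not called.

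In complex V every probe was called lower in TBBPA larvae, 34 of 34, and 29 of 34 were called in controls, with medians of -0.80 and -0.61. In TBBPA larvae the lowest was atp5c1, the rotating gamma subunit, at -1.31 ± 0.14, 2.48-fold lower (adjusted p 7.13e-06). It stood at -1.10 ± 0.14 in controls. Its levels were -1.07, -0.21 and -0.83 in TBBPA 8 dpf, against 0.51, 0.77 and 0.58 in TBBPA 5 dpf, and -0.81, -0.66 and -0.24 in control 8 dpf, against 0.65, 0.62 and 0.69 in control 5 dpf. The ages did not overlap, although replicate 2 of TBBPA 8 dpf stood well above its group. By parts of the enzyme, again divided after the values were seen, the 12 probes of the catalytic head and central stalk had medians of -0.78 in TBBPA larvae and -0.49 in controls. The 7 probes of the peripheral stalk had -0.83 and -0.69, the 6 of the c ring -0.73 and -0.57, and the 9 of subunits e and g -0.86 and -0.70. The 5 control probes that were not called were 3 of atp5b and 1 each of atp5d and atp5f1. The inhibitor atpif1 was at -0.54 and -0.61 in TBBPA larvae, both called, and at -0.34 and -0.30 in controls, the first called (adjusted p 0.012 and 0.0757). The control call was lost with RNA samples as replicates (adjusted p 0.18).

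**Figure D4:**
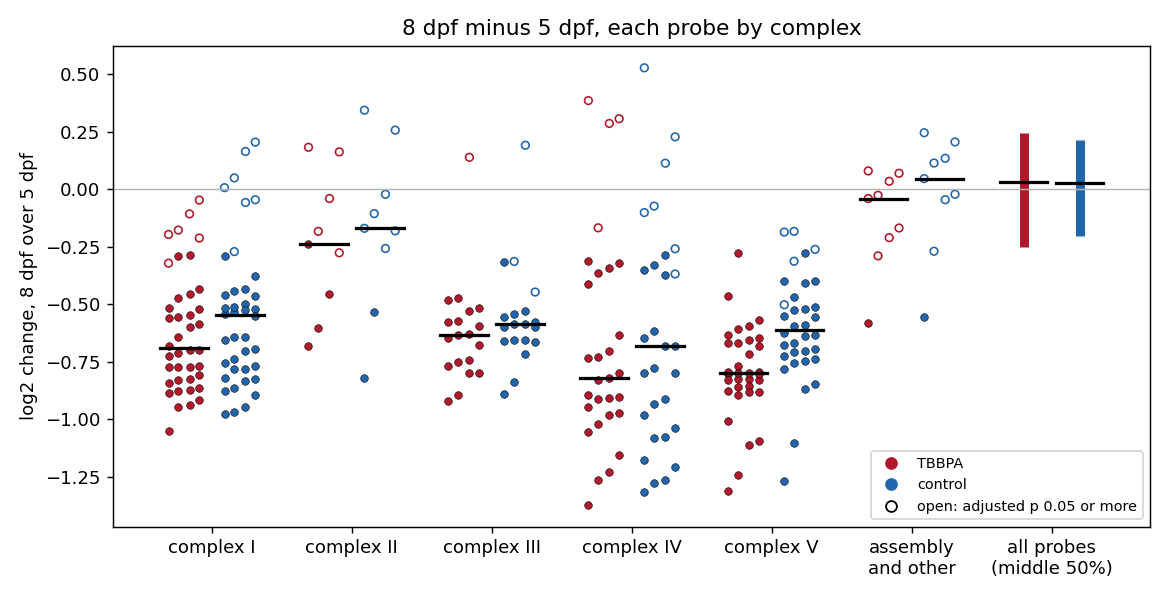
Log2 change of 8 dpf over 5 dpf for each member probe by complex, in TBBPA larvae and in controls; filled points have an adjusted p under 0.05, black lines are medians, and the bars at the right span the middle 50% of all probes. Medians lie between -0.55 and -0.82 in complexes I, III, IV and V and at -0.24 and -0.17 in complex II, and no filled point lies above 0.

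Among the 5 genes that are no subunits, 1 of 9 probes fell in each treatment. This was ndufaf2, at -0.58 ± 0.12 in TBBPA larvae and -0.56 ± 0.12 in controls. The 3 probes of sdhaf2 lay between -0.21 and 0.07 in TBBPA larvae and between -0.02 and 0.24 in controls, and the 3 of atp5s between -0.04 and 0.08 and between 0.05 and 0.13.

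Probes of the same gene did not always move alike, and the wide spread at 8 dpf was found on some of them and not on others. atp5b, the catalytic beta subunit, had 5 probes. On A_15_P175961 the TBBPA 8 dpf samples had -0.30, -0.51 and -0.30, and the control 8 dpf samples -0.49, -0.34 and -0.40. On A_15_P735636 they had -1.20, 0.16 and -0.44 and the controls -0.58, 0.05 and 0.08. The age change in TBBPA larvae was -0.83 on the first and -0.79 on the second, while in controls it was -0.87 on the first, which was called, and -0.18 on the second, which was not. The values of the other 3 probes in controls were -0.31, -0.52 and -0.26, with the -0.52 called. sdhb shows the same contrast. Probe A_15_P140766 ranged from -0.19 to -0.04 in TBBPA 8 dpf and probe A_15_P735146 from -0.94 to 0.39. Of the 42 genes with more than 1 probe, 4 had some probes called lower and others not in TBBPA larvae, and 10 in controls. What sets these probes apart was not tested.

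**Figure D5:**
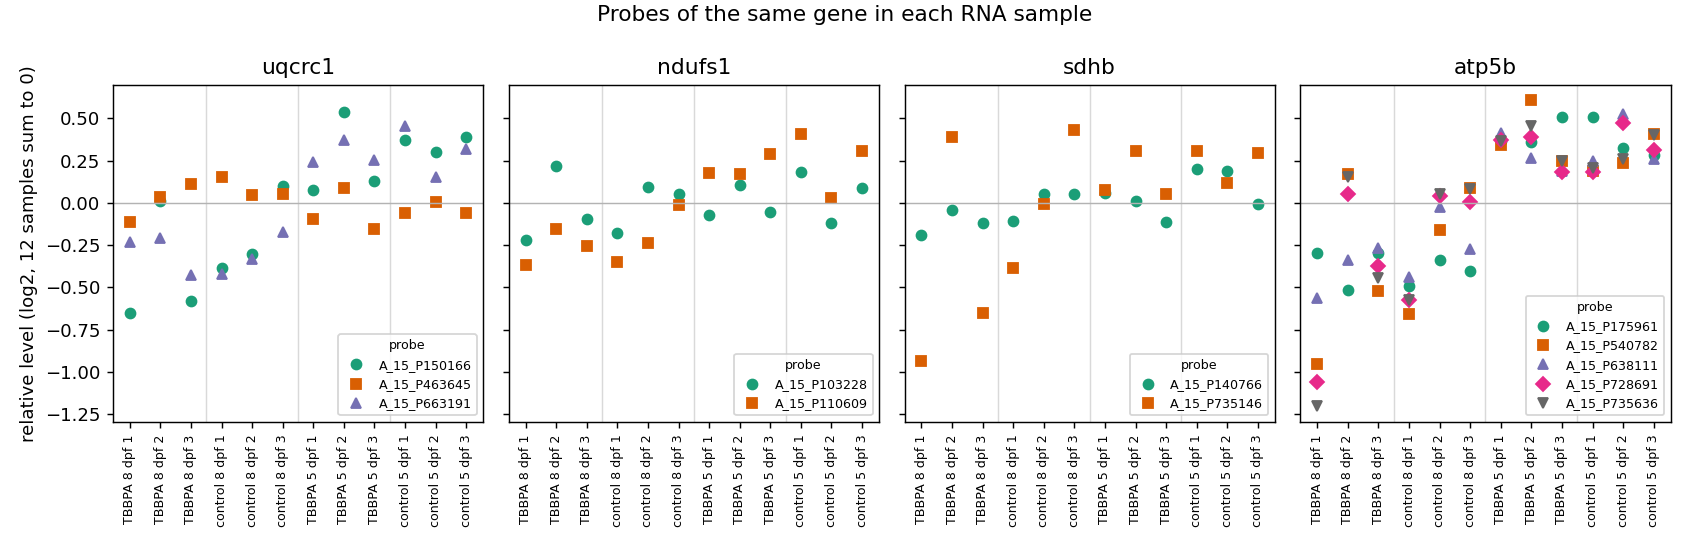
Relative levels (log2, 12 samples sum to 0) of each probe of uqcrc1, ndufs1, sdhb and atp5b in the 12 RNA samples, in the order TBBPA 8 dpf, control 8 dpf, TBBPA 5 dpf and control 5 dpf with replicates 1 to 3; each symbol is 1 probe. On atp5b and sdhb, some probes spread widely at 8 dpf (-1.20 to 0.16 and -0.94 to 0.39 in TBBPA) while others of the same gene stay together.

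The other genes of the mitochondrion were counted in the same way. Of 88 probes of the mitochondrial ribosome 55 fell and 0 rose in TBBPA larvae and 43 fell and 0 rose in controls, with medians of -0.33 and -0.27. Of 35 probes of further assembly factors, 12 fell and 0 rose in each treatment. Of 30 probes of electron carriers and nucleotide carriers, 12 fell in TBBPA larvae and 11 in controls. Of 24 probes of the import machinery, 8 fell and 2 rose in TBBPA larvae and 7 fell and 1 rose in controls. Among 9 probes of regulators of mitochondrial biogenesis, 1 fell and 1 rose in TBBPA larvae and 1 fell and 3 rose in controls. Outside the mitochondrion, 45 of 61 probes of glycolysis fell and 1 rose in TBBPA larvae, and 28 fell and 0 rose in controls, with medians of -0.68 and -0.43. These counts are read beside the 22.4% and 18.2% of all probes that fell, and the difference between the lists was not tested.

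Several marker lists fell with age at the same time, and others did not. Medians in TBBPA larvae and in controls were -2.63 and -1.97 for blood (4 of 4 probes fell in each), -1.58 and -1.06 for skin and cornea epithelium (24 and 21 of 27), -1.55 and -2.88 for exocrine pancreas (11 and 14 of 14), -0.93 and -0.55 for skeletal muscle (19 and 12 of 20) and -1.02 and -0.98 for the cell cycle (10 and 9 of 10). Rod genes had -0.23 and -0.44 (7 and 12 of 21 fell) and cone genes -0.56 and -0.47 (8 and 6 of 15). Pigment epithelium had -0.45 and -0.46 (5 and 5 of 9 fell). Muller glia had 0.33 and 0.50, with 7 and 10 of 18 probes higher and 3 and 3 lower, and lens had 0.27 and 0.52, with 3 and 5 of 13 higher and 1 and 1 lower. The mean level of the cell cycle genes ran from -0.61 to -0.37 in TBBPA 8 dpf and from -0.61 to -0.30 in control 8 dpf, against 0.48 to 0.53 in TBBPA 5 dpf and 0.34 to 0.56 in control 5 dpf. Skin genes ran from -0.87 to -0.48 in TBBPA 8 dpf and from -0.85 to -0.31 in control 8 dpf, against 0.74 to 0.99 in TBBPA 5 dpf and 0.30 to 0.67 in control 5 dpf. Blood genes ran from -1.17 to -0.46 in TBBPA 8 dpf and from -1.44 to -0.61 in control 8 dpf, against 1.24 to 1.59 in TBBPA 5 dpf and 0.44 to 0.78 in control 5 dpf. Cone genes ran from -0.42 to -0.23 in TBBPA 8 dpf and from -0.35 to -0.11 in control 8 dpf, against 0.15 to 0.30 in TBBPA 5 dpf and 0.17 to 0.43 in control 5 dpf. Pigment epithelium ran from -0.35 to -0.20 in TBBPA 8 dpf and from -0.30 to -0.07 in control 8 dpf, against 0.02 to 0.29 in TBBPA 5 dpf and 0.13 to 0.47 in control 5 dpf. In these 5 lists the ages did not overlap in either treatment. Rod genes ran from -0.08 to -0.02 in TBBPA 8 dpf and from -0.44 to -0.27 in control 8 dpf. At 5 dpf they ran from 0.17 to 0.26 in TBBPA and from 0.16 to 0.24 in control samples. Exocrine pancreas ran from -1.15 to -0.59 in TBBPA 8 dpf and from -1.12 to -0.27 in control 8 dpf, below its 5 dpf samples given above. The ages did not overlap in rod genes or pancreas either. Lens genes ran from 0.22 to 0.64 in TBBPA 8 dpf and from -0.47 to 0.45 in control 8 dpf, against -0.16 to 0.16 in TBBPA 5 dpf and -0.56 to -0.29 in control 5 dpf, where the ages overlapped in controls. The part of these tissues and of cell division in the age change of the respiratory chain was not tested.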

How the data were processed

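Eyes of zebrafish larvae in 4 groups of 3 RNA samples were compared on 14 two-colour Agilent arrays. The authors left out spots too close to the background on every array, corrected the scanned intensities with a normal-exponential model, normalized each array by loess and, per the labels, used limma 3.34.4; the deposited values are log2 ratios of 17950 probes, with 0 missing. Base and direction (Cy5 over Cy3) come from the methods and the dye labels. With the sign of an array reversed, the residuals of the fit grew 1.02 to 1.88 times in their summed squares. A reversal of all 14 cannot be tested. With the direction used, both cell cycle probes (9 of 10 called, median -0.98) and rod probes (12 of 21, median -0.44) fell with age in controls. Every rise and fall given here rests on this direction. limma 3.58.1 (R 4.3.3) was fitted with group coefficients, coded by dye, and the RNA sample as a random effect (estimated share 0; 11 residual degrees of freedom), for TBBPA minus control at each age, the difference of these effects, and 8 minus 5 dpf in each treatment. Tests were two-sided. The permutation test used scipy 1.17.1. Scripts were tested on simulated data.

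Precision is limited by how many arrays and samples there were. Probe symbols are those of the platform annotation; 125 of 140 member probes were matched by accession to a RefSeq gene table used for names alone, and no sequences or genome positions were used. The members, the gene lists and the rule for naming genes (called probes per complex, the largest changes, a list of key subunits, and genes whose probes disagree) were chosen with earlier results of these data known. Alternatives were a dye effect, RNA samples as replicates, direct arrays alone, a replicate block, equal array scale, averaged probes, updated symbols, the study's thresholds, and leaving out each RNA sample.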

Additional observations from a re-analysis of the deposited data

Results flagged for a closer look

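cox6a2 is the muscle form of subunit VIa of complex IV in mammals. In the main fit, whose p-values rest on arrays, its TBBPA effect was called different between the ages. The effect was 0.03 at 8 dpf, against 0.66 at 5 dpf, a difference of -0.63 ± 0.08 on the log2 scale (SE, with adjusted p 0.00601 by limma). The call was lost with RNA samples as replicates, a fit that called 0 of all 17950 probes for this difference. It was also lost in 7 of the 12 fits without 1 RNA sample. In the direct comparisons TBBPA exceeded control on 6 of 6 arrays at 5 dpf and on 2 of 4 arrays at 8 dpf. The 20 skeletal muscle probes had a median difference of -0.50 with 20 of 20 values negative and 0 called, and their part in the cox6a2 result was not tested.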

How the results depend on the processing

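Precision is limited by the number of arrays and of RNA samples. The 3 members higher at 5 dpf became 1 with a dye effect, with direct arrays alone and with a replicate block and dye effect together, 0 with RNA samples as replicates and 0 at the study's thresholds, which also require a log2 change past 0.75. The 1 call in the difference became 0 with RNA samples as replicates, with the replicate block and dye effect, and at the thresholds. Updated symbols added 1 lower call at 5 dpf (sdhaf3) and 2 higher calls in the TBBPA age comparison. The replicate block gave 1 lower call at 8 dpf, which was a probe of ndufv1 without the dye effect and a probe of sdha with it. Whether replicate numbers paired the samples could not be decided. Same-numbered deviations correlated between -0.46 and 0.68, both values at 8 dpf, and the samples behind the 0.68 shared an array. With the block, 110 members fell with age in TBBPA larvae and 86 in controls. Of all probes 6081 and 3348 were then called in either direction, against 7774 and 5792 in the main fit.

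The members lower with age, 116 in TBBPA larvae and 103 in controls, were 63 and 59 of 74 genes with probes averaged (1 gene, sdha, then rose in controls) and 60 and 36 at the thresholds. Equal array scale left 41 in controls. Its medians in TBBPA larvae were -0.44 (complex I), -0.42 (III), -0.54 (IV) and -0.57 (V), and in controls -0.33, -0.38, -0.41 and -0.32. Averaging turned the probe A_15_P463645 of uqcrc1 from positive to -0.39 in TBBPA larvae and -0.32 in controls, which is the mean over its gene.

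Leaving out each RNA sample gave 1 to 3 members higher at 5 dpf (1 without replicate 1 of TBBPA 5 dpf, replicates 1 and 2 of control 5 dpf, or replicates 1 and 2 of control 8 dpf), 0 to 6 lower at 8 dpf and 0 to 1 in the difference. With age it gave 48 to 115 lower and 0 to 1 higher in TBBPA larvae, and 47 to 104 lower and 0 to 3 higher in controls (3 without control 8 dpf replicate 3). The median of complex V at 5 dpf ran from 0.028 to 0.12 and that of complex II with age in controls from -0.28 to -0.084. With age in TBBPA larvae the medians ran from -0.73 to -0.51 (III), -0.89 to -0.69 (IV) and -0.90 to -0.65 (V). Of the comparisons of single named probes with an alternative, 5818 kept direction and side of the threshold, 255 lost and 46 gained a call, 411 changed sign without a call and 2 reversed, those of uqcrc1. The causes of these changes were not tested.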
